A study of Mus musculus with 8 samples.

Results

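The 78 protein-coding genes with an Mrpl or Mrps symbol were taken from the 50599 records of each library by their GENCODE mouse symbol. The letter pattern left out pseudogenes and used no measured value. The 78 comprised 49 Mrpl and 29 Mrps genes, and all but Mrps36 encode proteins of the mitochondrial ribosome. The 8 libraries, 4 labelled wildtype and 4 labelled Lrpprc knockout, came from whole hearts of male C57BL/6N mice aged 12 weeks. The wildtype animals carried the floxed gene without Cre (Lrpprc loxP/loxP), and the knockout animals carried the same floxed alleles together with a Cre active in heart and skeletal muscle (Lrpprc loxP/loxP,Cre+), so every animal had floxed Lrpprc alleles. Deletion was therefore confined by design to striated muscle, whereas RNA came from the whole organ with its fibroblasts, vessels and blood cells.

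Mitochondria translate their own small set of mRNAs on ribosomes of bacterial descent, whose RNA is transcribed from mitochondrial DNA while every protein is encoded in the nucleus, made in the cytosol and imported. The large subunit joins amino acids and the small subunit reads the mRNA. Some of the proteins have bacterial homologues and others arose with the mitochondrial ribosome. The heart, with its dense mitochondria, depends on this machinery for core subunits of the respiratory chain. LRPPRC, in a complex with SLIRP, binds mitochondrial mRNAs, and the study also reported binding sites of LRPPRC in the mitochondrial rRNAs.

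Gene names do not always place the protein. Mrps30 and Mrps18a encode proteins of the large subunit in spite of their symbols, and Mrps36 encodes a component of the 2-oxoglutarate dehydrogenase complex of the tricarboxylic acid cycle rather than a ribosomal protein. Placed by the subunit in which the protein sits, the list held 51 large subunit genes, 26 small subunit genes and Mrps36.

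Total expected counts ranged from 35218541 to 47743376 per library. The members together held between 37289 and 58354 counts, and the lowest member count in a library was 42. Lrpprc itself fell from normalised counts of 3424 to 3946 in the wildtype to 504.3 to 605.4 in the knockout, with no overlap. Mitochondrial rRNA took 44% to 46.9% of the counts in the wildtype and 65.6% to 67.8% in the knockout, so the deposited TPM values, expression values per length that share a fixed total, are pressed down in the knockout for nuclear genes. Knockout replicate 3 stood apart from the other 7 libraries on the second principal component, at 68.5 against values from -27.3 to 10.3.

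Whole-heart markers moved with genotype. Of 6 cardiomyocyte markers 5 fell, and their summed normalised count was 924100 to 1031000 in the wildtype and 443400 to 585900 in the knockout. Of 6 fibroblast markers 3 rose, with sums of 17180 to 17910 against 16250 to 53540, the lowest being knockout replicate 3. Of 6 macrophage markers 4 rose (3793 to 5176 against 3722 to 9559). Of 4 atrial markers 2 fell (9980 to 12040 against 1268 to 6012), and 0 of the endothelial, erythroid and adipose markers passed the threshold by DESeq2. No marker was at 0 in every library. The part of these shifts in the results that follow was not tested, and fewer cells of a type cannot be told apart from less RNA per cell.

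The promoters of 4 members are shown because they belong to the 2 largest rises and the 2 largest falls whose upstream window was single, overlapped no annotated exon and had no near-identical sequence of another gene with counts. Each run is the 250 bases before the RefSeq start (GRCm38.p6), 5′ to 3′ on the strand of the gene, and capitals mark matches to the 8 motifs named with the promoter results. Mrpl20 and Mrps23 rose, and Mrps36 and Mrpl42 fell. The windows are chr4:155802628-155802877 on the plus strand, chr11:88204138-88204387 on the plus strand, chr13:100744660-100744909 on the minus strand and chr10:95501950-95502199 on the minus strand, in that order.
Mrpl20: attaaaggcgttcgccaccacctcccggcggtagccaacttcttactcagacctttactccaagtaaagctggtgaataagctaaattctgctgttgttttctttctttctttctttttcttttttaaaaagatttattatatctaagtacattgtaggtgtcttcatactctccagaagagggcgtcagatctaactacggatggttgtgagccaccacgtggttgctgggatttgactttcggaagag
Mrps23: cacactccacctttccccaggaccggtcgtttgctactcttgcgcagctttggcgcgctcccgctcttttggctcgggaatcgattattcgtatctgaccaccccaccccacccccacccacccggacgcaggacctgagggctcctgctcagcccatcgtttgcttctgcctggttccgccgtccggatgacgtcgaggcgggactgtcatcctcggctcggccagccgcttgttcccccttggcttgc
Mrps36: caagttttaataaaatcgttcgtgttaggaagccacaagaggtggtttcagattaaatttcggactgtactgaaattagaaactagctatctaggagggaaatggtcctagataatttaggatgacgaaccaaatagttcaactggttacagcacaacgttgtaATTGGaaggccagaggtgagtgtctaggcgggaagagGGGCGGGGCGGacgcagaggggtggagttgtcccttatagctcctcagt
Mrpl42: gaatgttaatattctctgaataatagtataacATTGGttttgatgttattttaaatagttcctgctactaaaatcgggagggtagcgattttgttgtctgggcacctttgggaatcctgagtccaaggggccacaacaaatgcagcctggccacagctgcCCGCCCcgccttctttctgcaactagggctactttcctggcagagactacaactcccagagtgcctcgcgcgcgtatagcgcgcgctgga

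The first comparison asked how many members differed between knockout and wildtype, and in which direction. The list moved both ways and stayed centred near 0. Of 78 members, 19 were higher in the knockout (24.4%, against 18.2% of all 19959 genes tested) and 15 were lower (19.2%, against 15.5%), at an adjusted p under 0.05 by DESeq2. Their log2 fold changes had a median of 0.01, beside 0.01 over all genes tested, and 39 members lay above 0 and 39 below. Most members are well measured, and among the genes whose mean normalised count reached 200 the shares called were 28.6% higher and 21.7% lower, against 18 and 15 of 77 members. The number of members called was thus close to the background of genes of like abundance. A change of at least 2-fold with an adjusted p under 0.05 was found in 2 members (2.56%, against 12.4% of all genes tested), and in 1 of the 77 well-measured members (1.3%, against 10.2%). The interquartile range of the members' log2 fold changes was 0.61, and it was 0.69 for all genes of that abundance.

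The split between rises and falls depended on the scaling. With total counts, which let the larger share of mitochondrial rRNA weigh on every other gene, 8 members were higher and 40 lower, and once mitochondrial rRNA was left out of the totals 50 were higher and 4 lower. Those scalings moved the median log2 fold change over genes with a mean of at least 10 from 0.02 to -0.28 and to 0.45, and the members' median moved with it, to -0.29 and 0.43. Relative to the median of those genes, the members' median stayed at -0.01, -0.01 and -0.02 in the 3 scalings. Directions given for single members are therefore relative to the bulk of genes. Without knockout replicate 3, 17 members were higher and 19 lower, and 16 of the 19 rises and 15 of the 15 falls were called again.

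The groups did not overlap for 17 of the 19 members called higher and for 15 of the 15 called lower. Over all 78 members, 18 lay entirely above and 18 entirely below the wildtype (23.1% each), beside 16.7% and 16.4% of all genes tested. The corresponding shares among genes of like abundance were not computed. EdgeR called 17 of the 19 rises and 15 of the 15 falls again.

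**Figure D1:**
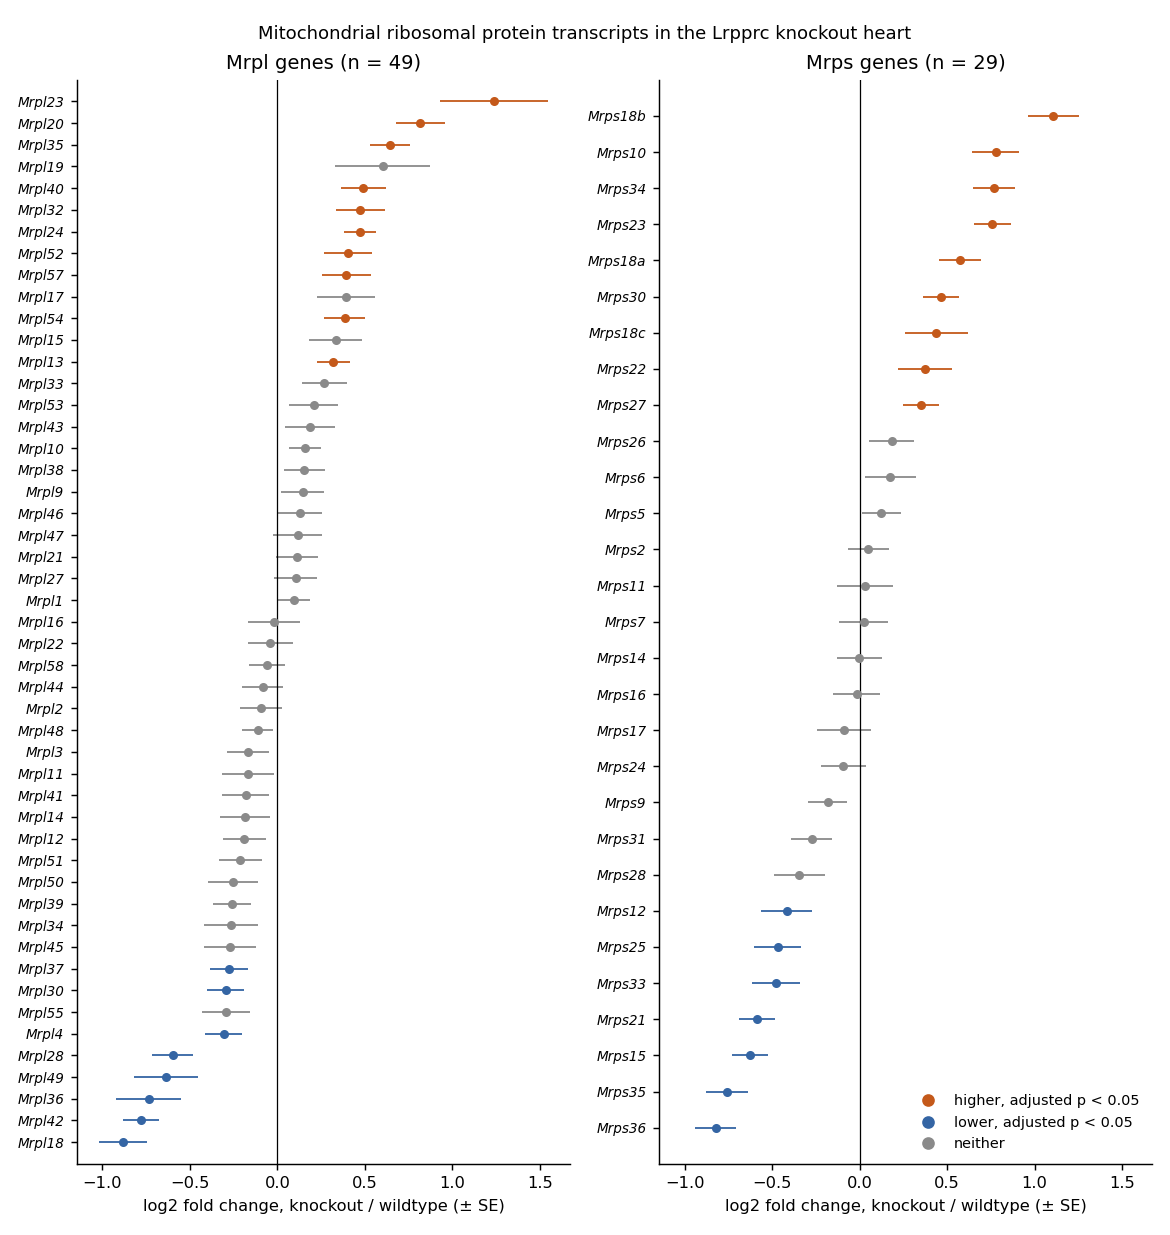
Log2 fold change of each member (x axis, knockout over wildtype) with its standard error, for 49 Mrpl genes on the left and 29 Mrps genes on the right, coloured by the DESeq2 call. Mrpl genes run from -0.88 to 1.24 and Mrps genes from -0.82 to 1.11, and 44 of the 78 are grey.

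The comparison of Mrpl with Mrps genes asked whether a subunit moved as a whole. Of 49 Mrpl genes 10 were higher and 8 lower, with a median log2 fold change of -0.02, and of 29 Mrps genes 9 were higher and 7 lower, with a median of 0.02. The medians differed by 0.04 on the log2 scale. That difference had no stable sign. Placed by the subunit in which the protein sits, the large subunit had the larger median by 0.08 (0.10 against 0.01), and without knockout replicate 1 the Mrpl minus Mrps difference was 0.01. Per library, the median of Mrpl minus that of Mrps, each relative to the wildtype mean, lay between -0.04 and 0.03 in the wildtype and between -0.02 and 0.05 in the knockout, which overlap.

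Mrpl and Mrps genes were also compared by their sums, where the result depended on the unit. These sums follow the symbols, so Mrps18a, Mrps30 and Mrps36 count with the Mrps genes. Sums by subunit were not computed. The sum of normalised counts over Mrpl genes divided by that over Mrps genes came to 2.11 ± 0.0733 in wildtype libraries and 1.90 ± 0.0535 in knockout libraries (SD, n = 4 each), and the groups did not overlap, with 2.03 to 2.18 against 1.84 to 1.97. Without Mrpl42, the member with the highest level, the difference of the means fell from -0.21 to -0.13, and the ranges of 1.85 to 1.99 and 1.74 to 1.85 met. In TPM, with all members kept, the ratio was 1.90 ± 0.0612 in the wildtype and 1.81 ± 0.0303 in the knockout (SD, n = 4 each), the difference was -0.0928, and the ranges of 1.85 to 1.98 and 1.79 to 1.85 met. Mrpl42 was singled out, and TPM added, after the values were seen.

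Members were also grouped by whether the protein holds the place of a bacterial ribosomal protein. Mrps18a and Mrps18b are related in sequence to bacterial S18 but were placed with the mitochondrial proteins, since the place of S18 belongs to Mrps18c. Of 10 small subunit genes of the mitochondrial class, 5 were higher and 3 lower, with an interquartile range of log2 fold changes of 1.08, whereas of 16 small subunit genes of the bacterial class 2 were higher and 3 lower, with an interquartile range of 0.29. In the large subunit the corresponding counts were 6 higher and 3 lower of 21, and 6 higher and 5 lower of 30. With Mrps18a and Mrps18b counted in the bacterial class instead, the small subunit had 4 higher and 3 lower of 9 mitochondrial genes, with an interquartile range of 0.84, and 3 higher and 3 lower of 17 bacterial ones, with 0.31. The large subunit then had 5 higher and 3 lower of 20, and 7 higher and 5 lower of 31. Of all genes whose mean normalised count reached 200, 28.6% were higher and 21.7% lower, with an interquartile range of 0.69. These counts are given as a description, and the difference between the classes was not tested.

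The members that rose most include both subunits. Mrps18b, a small subunit protein of a family of 3 related to bacterial S18, had normalised counts of 393.2, 400.7, 436.6 and 405.6 in wildtype replicates 1 to 4 and of 871.9, 775.4, 1114 and 762.7 in knockout replicates 1 to 4. All 4 knockout libraries lay above all 4 wildtype libraries, with replicate 3 highest. The change was 2.15-fold, or 1.11 ± 0.146 (SE) on the log2 scale (DESeq2, adjusted p = 8.49e-13). The gene lies on the minus strand at chr17:35910379-35916389 (GRCm38). Its relatives moved the same way by less. Mrps18a, whose protein sits in the large subunit, rose by 0.57 ± 0.12 (SE) on the log2 scale, from 654.6 ± 29.8 to 973.2 ± 131 normalised counts (SD, n = 4; DESeq2, adjusted p = 1.74e-05). Mrps18c, the direct homologue of the bacterial protein, changed by 0.44 on that scale (DESeq2, adjusted p = 0.0449; edgeR, adjusted p = 0.0561), with overlapping groups of 214.5 to 289.3 and 262.4 to 407.1. Its call was lost when wildtype replicate 2, 3 or 4 or knockout replicate 1 or 3 was left out, with adjusted p values of 0.082 to 0.137.

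Mrpl20, a large subunit protein that in bacteria is needed early in assembly, had counts of 367.0, 382.5, 351.6 and 361.9 in the wildtype and of 573.7, 624.6, 807.3 and 572.8 in the knockout. The wildtype values were tight and the knockout values all above them. Its log2 fold change was 0.82 ± 0.141 (SE; DESeq2, adjusted p = 8.83e-08). Mrps23, a small subunit protein without a bacterial homologue, is the most abundant of the rising members. Its counts were 1282, 1259, 1322 and 1151 in the wildtype and 2117, 2163, 2364 and 1843 in the knockout, which did not overlap (log2 fold change 0.76 ± 0.106 SE; DESeq2, adjusted p = 2.16e-11).

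Mrps10, a homologue of the bacterial protein S10, went from 235.2 to 270.7 normalised counts in the wildtype to 384.0 to 504.0 in the knockout (log2 fold change 0.78; DESeq2, adjusted p = 1.18e-07). Mrps34, a small subunit protein without a bacterial homologue, went from 347.0 to 403.9 to 574.5 to 719.0 (0.77; DESeq2, adjusted p = 3.12e-09). It overlaps Nme3, a nucleoside diphosphate kinase gene, on the same strand over 642 bases at 99.8% identity. With the counts of Nme3 added and no length offset, the Mrps34 change was 0.54 (DESeq2, adjusted p = 1.23e-05). Mrpl35, Mrpl40, Mrpl32, Mrpl24 and Mrps30 complete the 12 largest rises, at 0.65, 0.49, 0.47, 0.47 and 0.47 on the log2 scale, and in none of them did the groups overlap. The other 7 members called higher changed by 0.32 to 0.44 on the log2 scale.

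The largest fold change of the list, that of Mrpl23, rests on few counts, and its size depends on the length offset and on a copy of the gene. Mrpl23, a homologue of a bacterial protein at the mouth of the exit tunnel, lies at chr7:142532686-142540747 on the plus strand. Its expected counts were 49.1, 42.1, 76.1 and 64.3 in the wildtype and 86.2, 70.9, 59.2 and 95.4 in the knockout, which overlap before scaling. After scaling and the length offset the values were 53.0, 27.0, 63.0 and 35.1 against 130.4, 83.2, 84.3 and 118.4, which is 1.24 ± 0.307 (SE) on the log2 scale (DESeq2, adjusted p = 0.000339). The processed pseudogene Mrpl23-ps1 matches Mrpl23 at 100% identity over 540 bases and held 84.6% to 93.5% of the counts of the pair in each library. The pseudogene's own counts before scaling were 528 to 628.5 in the wildtype and 421.1 to 534.8 in the knockout. After scaling they were 503.5 to 587.9 and 487.7 to 599.9, with means of 542.0 and 541.9 (log2 fold change -2.43e-05). Without the length offset the log2 fold change was 0.68 (DESeq2, adjusted p = 0.00965), and with the counts of its copy added it was 0.65 (DESeq2, adjusted p = 0.00525). Each of these kept the call with a smaller value than 1.24. The fit with the copy added applied the length offset of Mrpl23 to a sum held mostly by the pseudogene. It therefore cannot show whether the call holds. With both changes made together the log2 fold change was 0.07 (DESeq2, adjusted p = 0.64) and the call was lost, in a setting that was chosen after seeing the data.

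**Figure D2:**
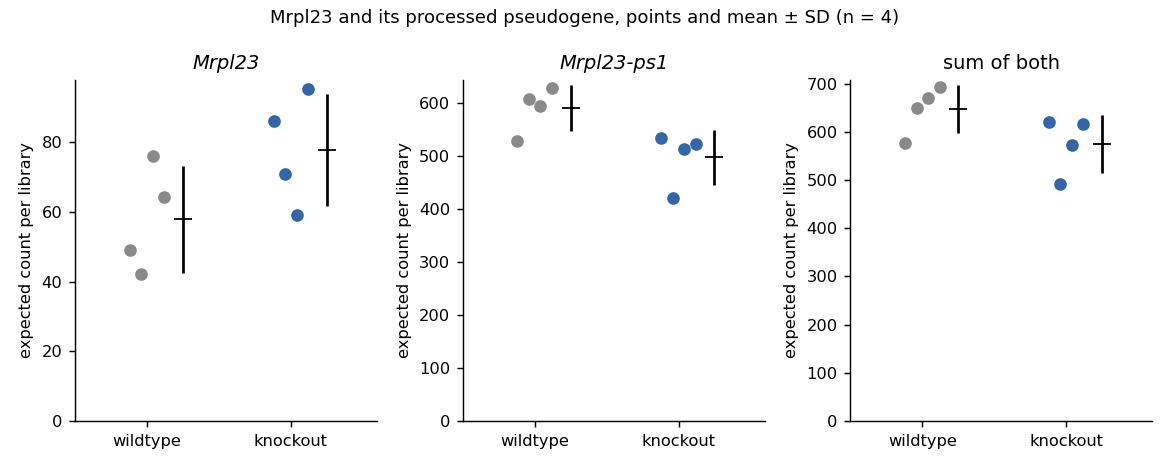
Expected counts (y axis) per library for Mrpl23, its processed pseudogene Mrpl23-ps1 and their sum, in wildtype and knockout, with the mean and SD of 4 libraries. The sum before scaling runs from 577.1 to 692.9 in the wildtype and from 492.0 to 621.0 in the knockout. The pseudogene holds 84.6% to 93.5% of it.

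Of the falls, Mrpl18 was the largest. Mrpl18, a large subunit protein related to the bacterial protein that binds 5S rRNA, had counts of 1247, 1123, 1271 and 1119 in the wildtype and of 809.4, 612.3, 607.6 and 556.1 in the knockout. The knockout values all lay below the wildtype, with replicate 1 highest. Its log2 fold change was -0.88 ± 0.137 (SE; DESeq2, adjusted p = 2.51e-09). Mrps36, the 2-oxoglutarate dehydrogenase component, fell almost as far, from 682.8, 722.5, 679.5 and 714.8 to 452.1, 421.9, 356.5 and 353.2 (log2 fold change -0.82 ± 0.118 SE; DESeq2, adjusted p = 5.83e-11). The second largest fall in the list thus belongs to a gene that is no ribosomal protein.

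Mrpl42, a large subunit protein without a bacterial homologue, combined a large fall with the highest level of the list. Its counts were 2772, 2663, 2848 and 2805 in the wildtype and 1856, 1508, 1659 and 1439 in the knockout. The groups lay far apart and the change was 0.583-fold (log2 fold change -0.78 ± 0.104 SE; DESeq2, adjusted p = 1.4e-12). Mrps35 fell by 0.76 on the log2 scale, from 957.6 ± 29.1 to 567.4 ± 79.2 (SD, n = 4; DESeq2, adjusted p = 4.57e-09).

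Mrpl36 and Mrpl49 fell by 0.74 and 0.64 on the log2 scale, with their lowest counts in knockout replicate 3, at 158.9 and 212.0. Mrps15 fell by 0.63 with tight groups, 489.0 to 493.9 against 297.9 to 341.0. Mrpl28, Mrps21, Mrps33 and Mrps25 had changes of -0.60, -0.59, -0.48 and -0.47, and Mrps12, which sits at the decoding centre of the small subunit, had -0.42 (DESeq2, adjusted p = 0.0158). Mrps12 lost its call when wildtype replicate 3 or 4 or knockout replicate 2 or 4 was left out, with adjusted p values of 0.0702 to 0.0786. The other 3 members called lower had log2 fold changes of -0.31 to -0.28. The remaining 44 members passed in neither direction, with log2 fold changes from -0.34 to 0.60.

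**Figure D3:**
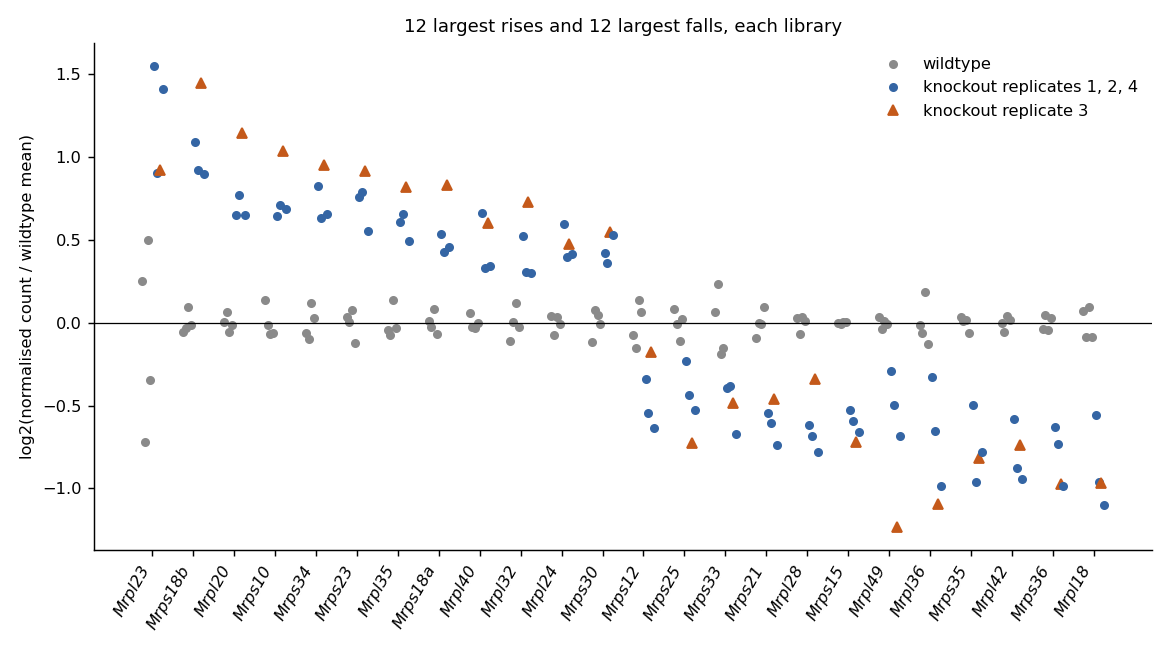
Normalised count of each library relative to the wildtype mean (y axis, log2) for the 12 largest rises and 12 largest falls, with knockout replicate 3 as triangles. In the 19 called rises replicate 3 was the highest knockout library 12 times, and in the 15 called falls replicate 1 was the highest knockout library 9 times.

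The libraries differed in how far they moved. Over the 19 members called higher, the median log2 distance from the wildtype mean was 0.59, 0.38, 0.73 and 0.42 in knockout replicates 1 to 4. For the 15 called lower it was -0.38, -0.59, -0.72 and -0.68. These members were chosen with the same libraries, so the values describe the spread and test nothing.

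Levels were compared per length, as TPM. The wildtype median of the list was 16.8 TPM, with quartiles of 10.5 and 24.2. Mrpl42 stood first with 154.9, 147.4, 157.0 and 150.1 TPM. Mrps21 and Mrpl30 followed at 79.4 ± 2.72 and 73.2 ± 4.23 TPM (SD, n = 4), whose ranges of 75.89 to 82.47 and 70.43 to 79.37 overlap. At the other end were Mrpl23 at 1.15 ± 0.433, Mrpl57 at 3.11 ± 0.261 and Mrpl11 at 4.8 ± 0.601 TPM (SD, n = 4). The level of Mrpl23 is what remained after most reads of its pair were given to Mrpl23-ps1, at 32.6 to 39.4 TPM in the wildtype, so its place is uncertain. Mrpl57 rose by 0.39 on the log2 scale (DESeq2, adjusted p = 0.0158), a call that was lost when wildtype replicate 1, 2 or 4 or knockout replicate 3 was left out, with adjusted p values of 0.0579 to 0.0688. Mrpl11 had -0.17 (DESeq2, adjusted p = 0.409).

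In the knockout Mrpl42 remained first, at 80.7 ± 5.87 TPM, Mrps23 rose in rank from 7 to 2, Mrps18b from 49 to 14, Mrps36 fell from 6 to 26 and Mrpl18 from 11 to 38. Divided into 3 groups of 26 by mean TPM over all 8 libraries, the 26 highest members had 5 higher and 9 lower calls (19.2% and 34.6%) and a median log2 fold change of -0.18, beside 35.5% and 22.5% and a median of 0.12 over the 1159 genes tested in the same TPM range. The 26 in the middle had 6 and 3 calls (23.1% and 11.5%, beside 31.2% and 18.8% of 1107 genes). The 26 lowest had 8 and 3 (30.8% and 11.5%, beside 25.5% and 19.4% of 6693 genes), with a median of 0.12 beside 0.06. These counts describe the genes of a single list, and the differences between levels were not tested.

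**Figure D4:**
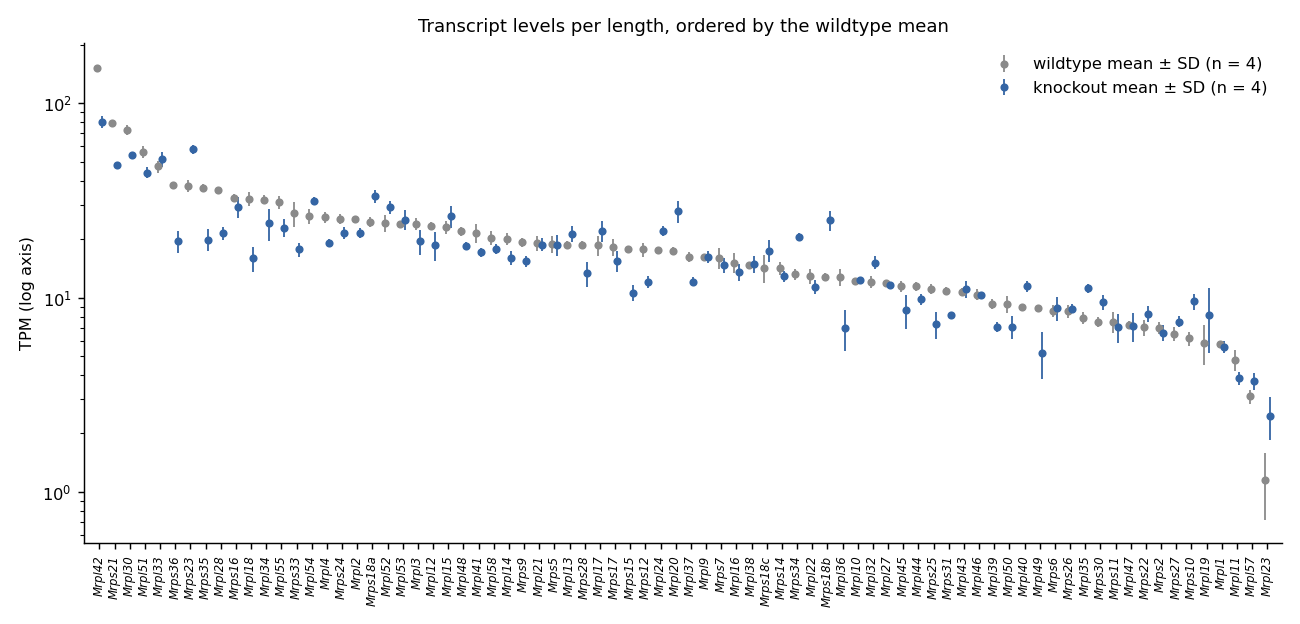
TPM (y axis, log scale) of the 78 members in the wildtype and the knockout, as mean and SD of 4 libraries, ordered by the wildtype mean. Mrpl42 is first in both groups and Mrpl23, most reads of whose pair went to its pseudogene, is last.

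The mean transcript length that RSEM assigns to a gene shifts when the share of its isoforms shifts. Between groups, 3 of 78 members became shorter without overlap by at least 5% (3.85%, against 2.77% of 12180 genes with a mean of at least 50 counts), and 0 became longer (against 2.41%). The mean length of Mrpl17, a large subunit protein, was 854.1 to 1111 bases in the wildtype and 755.2 to 818.5 in the knockout, 18.9% shorter. For Mrps10 the lengths were 1271 to 1476 and 1159 to 1209 bases, and for Mrps23 they were 1103 to 1202 and 963.9 to 1097. These 3 were kept because their lengths did not overlap, so no test is given. Mrpl23 and Mrpl35 also shifted by over 10%, with groups that overlap. Mrpl23 was 30.5% shorter, the largest shift of the list, with 1217 to 1776 bases against 956.0 to 1223, and Mrpl35 was 12.2% shorter, with 1640 to 1801 against 1445 to 1655. The length offset enters the fold change. Without it Mrps10 and Mrps23 kept a rise of 0.55 and 0.54 on the log2 scale (DESeq2, adjusted p = 0.000349 and 7.44e-05), and Mrpl35 had 0.43 in place of 0.65 (DESeq2, adjusted p = 0.001), whereas Mrpl17, which had 0.39 with the offset and did not pass, had 0.03.

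Neighbouring genes that start close together on opposite strands can share a promoter region. Of the 78 members, 33 had a protein-coding partner on the other strand whose annotated start lay within 1000 bases. Of 16 called members with a tested partner, 9 partners were also called (56.2%), 5 in the same direction and 4 in the other, and of 17 tested partners of members not called, 5 were called (29.4%). Over all genes tested 33.7% were called in either direction, and 50.3% of those whose mean normalised count reached 200. Mrps11 and Mrpl46, both not called, are each other's partner, so each stands in the latter set as member and as partner. The difference between the 2 sets of partners was not tested. Mrpl36 fell together with Ndufs6, a complex I subunit gene whose start lies 29 bases away and which changed by -0.64 on the log2 scale (DESeq2, adjusted p = 5.77e-07).

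In 4 pairs member and partner were called in opposite directions. Mrps18b rose while Ppp1r10, a phosphatase regulator starting 45 bases away, fell by 0.45 on the log2 scale (DESeq2, adjusted p = 0.000216). Mrpl18 fell while Tcp1, a subunit of the cytosolic chaperonin with an overlapping start 644 bases away, rose by 0.49 (DESeq2, adjusted p = 0.00134). Mrpl49 fell while Fau, a gene for a cytosolic ribosomal protein starting 59 bases away, rose by 0.98 (DESeq2, adjusted p = 1.78e-11). Mrps34 rose while Eme2, an endonuclease subunit gene starting 29 bases away, changed by -0.35 (DESeq2, adjusted p = 0.024). The reads were counted with a strand setting, so partners were counted apart. The difference within a pair was not tested as such.

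**Figure D5:**
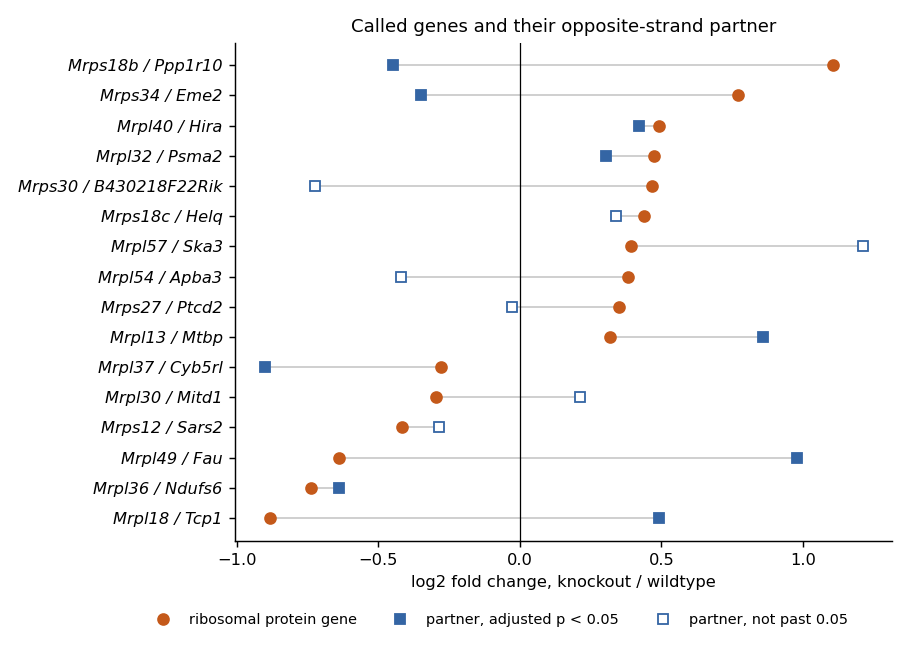
Log2 fold change (x axis) of the 16 called members with a tested opposite-strand partner (circles) and of the partner (squares, filled where the adjusted p is under 0.05). Mrps18b with Ppp1r10, Mrps34 with Eme2, Mrpl49 with Fau and Mrpl18 with Tcp1 lie on opposite sides of 0.

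Around the 8 members with the 4 largest rises and 4 largest falls, 69 other genes within 100 kb were tested, and 16 were higher (23.2%, against 18.2% of all genes tested) and 12 lower (17.4%, against 15.5%), which is near the background. Near Mrpl18, 6 of 11 neighbours were lower and 1 was higher, among them Sod2, the mitochondrial superoxide dismutase, at -0.65 (DESeq2, adjusted p = 9.76e-10; named after its value was seen). Near Mrps36, which fell, 3 of 8 neighbours were higher and 0 lower, and near Mrps35, which also fell, 1 of 4 was higher and 0 lower. Near Mrpl20, which rose, 6 of 18 were higher and 0 lower, and near Mrps18b 4 of 16 were higher and 3 lower. Near Mrpl23 1 of 5 was higher and 2 lower, near Mrpl42 1 of 3 was lower, and near Mrps10 0 of 4 neighbours passed by DESeq2.

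The promoter windows, 250 bases before and 50 after the RefSeq start, were found for 69 of the 78 members. The motifs searched on both strands were the NRF1 core CGCATGCG, the ETS (GABP) core CCGGAAG, the YY1 core AAGATGGCG, the CCAAT box CCAAT, the SP1 GC box GGGCGG, the CREB site TGACGTCA, the ATF4-CEBP element TGATGCAA and the TATA box TATAAA. NRF1 and GABP are the factors best known for nuclear genes of mitochondrial proteins. The ETS core was in 26 of 69 members (37.7%, against 12.9% of protein-coding genes), the NRF1 core in 7 (10.1%, against 2.77%) and the YY1 core in 8 (11.6%, against 2.14%). The TATA box was in 5 (7.25%, against 14.8%) and the ATF4-CEBP element in 0 (against 1.01%). Closer to the background were the GC box in 34 (49.3%, against 49.2%), the CCAAT box in 27 (39.1%, against 42.3%) and the CREB site in 2 (2.9%, against 2.54%).

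By direction, the ETS core was in 8 of 16 members called higher, 4 of 13 called lower and 14 of 40 others. The CCAAT box was in 5 of 16, 9 of 13 and 13 of 40, beside 42.3% of protein-coding genes. In the same order, the GC box was in 7, 8 and 19, the YY1 core in 3, 3 and 2 and the NRF1 core in 2, 0 and 5. The CREB site was in 0, 1 and 1 and the TATA box in 0, 0 and 5. The printed windows of Mrpl20 and Mrps23 hold 0 of these matches, the upstream window of Mrps36 holds a CCAAT box and 2 overlapping GC boxes, and that of Mrpl42 holds a CCAAT box and a GC box. In the 50 bases after the start, which are not printed, Mrpl20 has a CCAAT box, Mrps23 an ETS core and Mrpl42 a YY1 core. These are letter matches and were not tested.

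The ribosome's other components were read from a list chosen by function. The rRNA of the small subunit, mt-Rnr1, rose by 0.92 on the log2 scale (DESeq2, adjusted p = 1.79e-20) and that of the large subunit, mt-Rnr2, by 0.86 (DESeq2, adjusted p = 3.15e-18), and both rises held in total counts, at 0.63 and 0.56. Of 5 ribosomal proteins without an Mrpl or Mrps symbol, 0 passed by DESeq2 or edgeR. In total counts 2 were lower, in totals without mitochondrial rRNA 4 were higher, and 1 was lower without knockout replicate 3. Their log2 fold changes were -0.18 for Dap3, 0.26 for Chchd1, 0.08 for Aurkaip1, -0.20 for Ptcd3 and -0.02 for Gadd45gip1. The members' own median of 0.01 stands beside these values, and the difference between protein and rRNA genes was not tested.

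A list of 13 genes of mitochondrial translation held factors together with Taco1, Oxa1l and Mtfmt, which formylates the initiator tRNA. Of the 13, 6 were lower (46.2%, against 15.5% of all genes tested and 21.7% of those whose mean normalised count reached 200) and 0 higher, by DESeq2 and by edgeR. Tufm, the elongation factor that brings aminoacyl-tRNA to the ribosome, had counts of 2612, 2542, 2763 and 2727 in the wildtype and of 1879, 1616, 1347 and 1474 in the knockout, with no overlap (log2 fold change -0.75; DESeq2, adjusted p = 3.7e-09). Mtrf1l, a release factor, fell by 0.79 and the initiation factor Mtif2 by 0.48 on the log2 scale. Gfm1, an elongation factor, fell by 0.36, Taco1, a translational activator of cytochrome c oxidase subunit I, by 0.33, and Oxa1l, the inner membrane insertase, by 0.30. The counts depended on scaling, with 0 higher and 11 lower in total counts and 4 higher and 1 lower in totals without mitochondrial rRNA. Without knockout replicate 3, 0 were higher and 5 lower, and the median log2 fold change of the 13 was -0.13 in place of -0.20.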

How the data were processed

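RNA from 4 wildtype and 4 knockout hearts was sequenced as paired-end reads after depletion of cytoplasmic rRNA. The authors made the deposited expected counts, TPM values and transcript lengths (other values, in bases) with RSEM 1.2.31 and Bowtie2, reverse-stranded, against GENCODE vM13 transcripts with added mitochondrial records. RSEM divides reads that match several genes. A table of normalised counts with 8 columns that match no label, and the authors' table of fold changes and p-values, were not used.

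Expected counts were rounded and fitted over all genes with DESeq2 1.42.0 in R 4.3.3 (genotype as the only term, effective lengths as offset, Benjamini-Hochberg adjustment, threshold 0.05), after the study's own methods. EdgeR 4.0.16 was an alternative, beside no length offset, a filter of 10 counts in 4 libraries, a replicate block, totals with mitochondrial rRNA and without it, each library left out in turn, and adding the counts of annotated copies. Both tools were tested on simulated data, where DESeq2 made more false calls than edgeR and more than the threshold allows. The simulated fits used no length offset, unlike the main fit. Gene symbols and coordinates (GRCm38) are those of GENCODE M21, which matched 50339 of 50563 identifiers. Near-identical sequences were found with blastn 2.17.0 (95% identity over 200 bases). Named members were the 12 largest rises and 12 largest falls past the threshold whose mean normalised count was 50 or more, the 3 highest and 3 lowest by wildtype TPM, Mrps18a, Mrps18b, Mrps18c, Mrps30 and Mrps36. Markers of cardiomyocytes, fibroblasts, macrophages, endothelium, atria, erythroid cells and adipose tissue were listed. The members and lists were chosen with earlier results of these data known. Each library was counted as 1 replicate, since no pair agreed within sampling noise (chi-square per degree of freedom 4.62 to 51.2).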

Additional observations from a re-analysis of the deposited data

Results flagged for a closer look

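In 3 of 56 groups of 4 libraries over the named members, a single library lay far from the other 3, and chance gives about 5% of such groups. The normalised count of Mrps10 was 504.0 in knockout replicate 3, beside 384.0 to 403.3 in the other knockout libraries. Without that library its log2 fold change was 0.68 (DESeq2, adjusted p = 2.9e-07). Mrpl57 had 271.6 in wildtype replicate 3, beside 230.4 to 234.7. Mrps18c had 289.3 in wildtype replicate 1, beside 214.5 to 224.1.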

How the results depend on the processing

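With total counts 8 members were higher and 40 lower, with a median log2 fold change of -0.29, and with total counts without mitochondrial rRNA 50 were higher and 4 lower, with a median of 0.43. Under the latter scaling Mrps12 was at 0.00267, Mrpl30 at 0.125 and Mrpl11 at 0.249, where DESeq2 otherwise gave negative values. The median over all genes moved by a like amount. Of the 27 named members that were called, 6 lost the call with total counts and 9 without mitochondrial rRNA. Leaving out 1 library gave 16 to 22 members higher, 11 to 20 lower and a median of -0.01 to 0.05. The ratio of summed Mrpl to Mrps counts differed by -0.21 between groups, by -0.128 without Mrpl42 and by -0.0928 in TPM. The Mrpl minus Mrps difference of -0.04 ranged from -0.0622 to 0.00922 on leaving out 1 library, and was 0.0843 with members placed by subunit. With edgeR, no length offset, the count filter and added copies, the numbers higher and lower stayed within 1.5 times the main ones. Every planned setting called Mrps18b, Mrps10, Mrps23, Mrps34, Mrps18a, Mrpl20, Mrpl35 and Mrpl23 higher and Mrpl18, Mrpl42, Mrps35 and Mrps36 lower. Mrpl23, however, lost its call when its copy was added without the length offset, a setting chosen after seeing the data. The planned setting with added copies applied the length offset of Mrpl23 to a sum held mostly by its pseudogene, so it cannot test that call. Calls lost on leaving out 1 library were those of Mrps12, Mrpl30, Mrpl57 and Mrps18c among the named members. With a shift of at least 10% in place of 5%, 3 members were shorter. The replicate numbers did not pair the samples (correlations of same-numbered libraries from -0.07 to 0.07), and a replicate block gave 14 members higher and 13 lower, with a median of 0.01 and an Mrpl minus Mrps difference of -0.0425. Among the named members the block ended the calls of Mrpl30, Mrpl57 and Mrps18c, and edgeR that of Mrps18c. The low counts of Mrpl23, 42.1 to 95.4 per library, limit its precision.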
